A study of Mus musculus with 2 samples.

Results

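The Krüppel-like factors (KLFs) examined here are the 7 family members *Klf2*, *Klf3*, *Klf4*, *Klf5*, *Klf6*, *Klf9* and *Klf15*, which have published roles in adipogenesis. They were taken by name: every probe set whose platform annotation paired it with one of these genes and with no other was read, which gave 26 of the 34945 probe sets that name 1 gene, and 7 of 18193 genes. A probe set is a group of short array probes that measures 1 transcript region. All 7 symbols matched their Entrez identifiers in the RefSeq gene table. The cells were mouse embryonic fibroblasts (MEFs), grown from C57BL/6 embryos at embryonic day 12.5 and used at passage 2, and 1 Affymetrix mouse genome array was run per genotype. The groups were wild-type MEFs (BCL11B+/+) and MEFs with both copies of the gene for the zinc finger factor BCL11B knocked out (BCL11B-/-). Both had been kept for 12 h in medium with 10% fetal bovine serum and ascorbic acid. It held the adipogenic mixture of 10 μM pioglitazone, 10 μg/ml insulin, 1 μM dexamethasone and 0.5 mM isobutylmethylxanthine. How many embryos went into each culture is not given in the sources used here. With 1 array per genotype no difference between genotypes could be tested, and a difference between genotypes cannot be told apart from one between cultures.

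KLFs are transcription factors that bind GC-rich and CACCC-containing DNA through 3 zinc fingers at their C-terminal end, and BCL11B carries a similar run of fingers. In cultured preadipocytes they form part of the early cascade between the hormone cocktail and peroxisome proliferator-activated receptor γ (PPARγ). KLF4 acts with EGR2 on the *Cebpb* gene, KLF5 is switched on by C/EBPβ and C/EBPδ and acts with them on *Pparg*, KLF6 represses *Dlk1*, KLF9 acts on *Pparg*, and KLF15 acts on *Slc2a4*. KLF2 and KLF3 restrain the process, KLF2 at the *Pparg* promoter and KLF3 with CtBP corepressors at *Cebpa*. Dexamethasone is known to induce *Klf9* and *Klf15* through the glucocorticoid receptor, and isobutylmethylxanthine, which raises cAMP, is known to induce *Klf4*.

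The 2 arrays had like distributions, and the median of each was 5.28 on the log2 scale. All 4 *Bcl11b* probe sets read lower in BCL11B-/- MEFs, by 2.26- to 2.97-fold, and which exons are deleted is not given in the sources used here. The cultures also differed outside the KLF family. *Xist*, the RNA made from the inactive X chromosome of female cells, read 10.80 in wild-type and 4.80 in BCL11B-/- MEFs on its brightest probe set, and the Y-linked gene *Eif2s3y* read 7.89 and 8.97, so the cultures were not alike in sex-linked RNA. Among all genes with a mean of at least 5 log2 units, 1.75% were at least 1.5-fold lower and 1.61% at least 1.5-fold higher. Of 10 macrophage markers 10 read lower in BCL11B-/- MEFs, 8 of them by at least 1.5-fold. The log2 of their summed signal was 12.16 in wild-type and 11.36 in BCL11B-/- MEFs. Smooth muscle markers summed to 12.52 and 13.22, with 4 of 6 at least 1.5-fold higher, and most of this sum was *Acta2*, whose 3 probe sets ranged from −0.072 to 0.65. Without suffixed probe sets the smooth muscle sums were 10.70 and 11.51, with 3 of 5 counted markers at 1.5-fold. Chondrocyte markers summed to 8.75 and 9.77, with 4 of 5 at least 1.5-fold higher. The fibroblast label was borne out by 8 of 8 fibroblast markers, which read between 9.90 and 14.06, although *Lum*, *Dcn* and *Thy1* among them were 2.31-, 1.84- and 1.57-fold lower in BCL11B-/- MEFs. Of 7 endothelial markers 5 had a mean under 5 log2 units, among them *Pecam1* and *Cdh5*. Epithelial markers summed to 9.03 and 8.95, with none of 5 at 1.5-fold. For skeletal muscle 1 of 5 markers and for adipocytes 3 of 5 had a mean of at least 5, and none of these was at 1.5-fold, although the adipocyte hormone gene *Adipoq* read 5.46 in wild-type and 6.02 in BCL11B-/- MEFs, 1.47-fold higher.

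At 12 h of differentiation *Klf4*, *Klf5*, *Klf6* and *Klf9*, which promote adipogenesis, all read lower in BCL11B-/- than in wild-type MEFs, and so did *Klf3*, which restrains it. *Klf2* and *Klf15* read slightly higher. The differences were small. On the brightest probe set of each gene none of the 7 was 1.5-fold higher or lower, where 1.61% of 12331 genes were at least 1.5-fold higher and 1.75% at least 1.5-fold lower. These 12331 are the genes with a mean of both arrays of at least 5 log2 units, which all 7 members passed. At 1.2-fold 5 of the 7 were lower and none was higher, where 7.8% of all genes were lower and 8.81% were higher. The median log2 difference between BCL11B-/- and wild-type MEFs was −0.32 over the 7 members and 0 over all genes. The count of 5 depends on which probe set stands for a gene. Averaging all probe sets of a gene left 2, with a median of −0.20 over the 7 members. Leaving out probe sets with a suffix (_a, _s or _x, which mark probes shared between transcripts) left 3, with a median of −0.22. The count was 4 with the mean over probe sets of at least 5 log2 units. By these 3 choices, in this order, 6.32%, 8.51% and 7.15% of all genes were at least 1.2-fold lower.

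The probe sets of a gene gave a second view, although they read the same RNA and are no replicates. Of the 26 probe sets 22 read lower and 4 higher in BCL11B-/- MEFs. Of the 22 with a mean of at least 5, 19 read lower, or 86.4%, where 50.3% of the 21614 named probe sets above that floor did. All of these 19 belong to *Klf3*, *Klf4*, *Klf5*, *Klf6* and *Klf9*, and the 3 that read higher are the single probe sets of *Klf2* and *Klf15* and 1 of *Klf3*. As a measure of spread within a gene, different probe sets of the same gene gave log2 differences with a pooled SD of 0.145 over 5543 genes. The differences of *Klf3*, *Klf4*, *Klf5*, *Klf6*, *Klf9* and also *Klf2* and *Klf15* on their brightest probe sets were all larger than this SD, those of *Klf2* and *Klf15* only just. The SD of the difference over all genes was larger, at 0.253. The differences of *Klf2* and *Klf15* were smaller than that SD, and that of *Klf3* was only just larger. The spread between probe sets holds no variation between cultures.

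**Figure D1:**
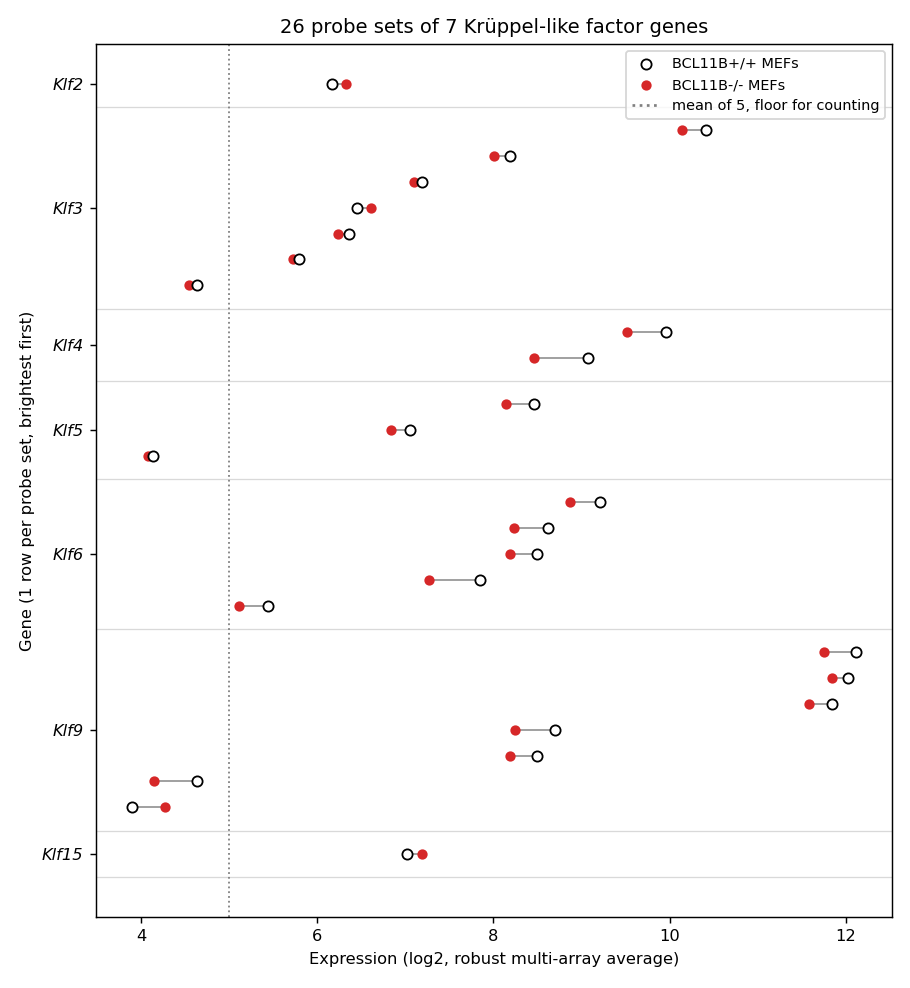
Expression on the log2 scale (horizontal axis) of the 26 probe sets of the 7 genes (vertical axis, brightest first within a gene), with open circles for wild-type and red circles for BCL11B-/- MEFs, 1 array each, so that there is no error to draw. The red circle lies to the left for 22 probe sets, among them both of *Klf4* and all 5 of *Klf6*, and to the right for 4, among them the probe sets of *Klf2* and *Klf15*.

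For *Klf4*, *Klf6* and *Klf9*, which were lower in BCL11B-/- MEFs, and *Klf15*, which was not, the 250 bases before the transcription start are shown, since elements that respond to the hormones of the mixture can lie there. The sequences are from RefSeq on GRCm38.p6 and run 5′ to 3′ on the strand of the gene. *Klf4* lies at chr4:55532476-55532725 on the minus strand, and *Klf6* at chr13:5861239-5861488, *Klf9* at chr19:23140976-23141225 and *Klf15* at chr6:90462326-90462575 on the plus strand. Capitals mark matches on either strand to the CACCC box (CACCC), the GC box (GGGCGG) and the core of the cAMP response element (TGACG).
Klf4: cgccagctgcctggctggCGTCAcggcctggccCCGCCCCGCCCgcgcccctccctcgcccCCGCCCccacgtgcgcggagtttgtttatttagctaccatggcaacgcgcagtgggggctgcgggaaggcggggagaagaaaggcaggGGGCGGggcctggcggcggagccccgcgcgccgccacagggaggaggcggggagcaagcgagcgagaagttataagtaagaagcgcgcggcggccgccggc
Klf6: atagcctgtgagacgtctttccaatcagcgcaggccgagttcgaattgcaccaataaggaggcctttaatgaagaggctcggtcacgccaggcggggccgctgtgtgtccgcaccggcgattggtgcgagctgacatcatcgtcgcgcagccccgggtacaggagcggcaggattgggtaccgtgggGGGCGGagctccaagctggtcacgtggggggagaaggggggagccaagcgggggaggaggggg
Klf9: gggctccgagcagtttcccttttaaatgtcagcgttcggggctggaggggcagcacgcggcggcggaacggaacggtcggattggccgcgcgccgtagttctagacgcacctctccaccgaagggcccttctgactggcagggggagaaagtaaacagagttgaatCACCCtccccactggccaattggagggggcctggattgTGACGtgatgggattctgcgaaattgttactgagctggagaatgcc
Klf15: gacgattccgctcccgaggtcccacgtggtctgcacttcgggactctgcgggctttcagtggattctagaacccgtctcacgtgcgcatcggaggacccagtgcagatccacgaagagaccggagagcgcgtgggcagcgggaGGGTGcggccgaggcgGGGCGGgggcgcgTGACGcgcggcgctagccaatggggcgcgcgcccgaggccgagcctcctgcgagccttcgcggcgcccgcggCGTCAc

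Positions count back from the start, so that −1 is the last base shown. The *Klf4* window held 4 GC boxes, of which those beginning at −217 and −212 share 1 base, and a TGACG core at −232. *Klf6* held 1 GC box at −63. *Klf9* held 1 CACCC box at −84 and 1 TGACG core at −46 but no GC box. *Klf15* held 1 CACCC box, 1 GC box and TGACG cores at −78 and −6. The same window of *Klf2* held 2 GC boxes, 1 CACCC box and 1 TGACG core, and that of *Klf3* held 6 GC boxes and 5 CACCC boxes, with 1 GC box and 1 CACCC box overlapping. Thus 5 of the 6 members with a sequence held a GC box, 4 a CACCC box and 4 a TGACG core. Among all 32851 promoters in the same table, 32.7% held a GC box, 52.0% a CACCC box and 17.8% a TGACG core. The windows were rich in G and C, from 59.6% in *Klf9* to 78.4% in *Klf3*, where the median promoter had 52.4%. The C/EBP motif TTGCNNNAA, present in 8.29% of promoters, was matched once, in *Klf6* at −205. The palindromic glucocorticoid response element, written as GNACA and TGTNC with 3 bases between them, was matched in 0.387% of promoters and in no member. These matches describe letters in a short window and do not show binding. *Klf5* was not in the table.

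*Klf4*, which encodes an early activator of *Cebpb* and is better known as a pluripotency factor, showed the largest difference of the 7. Its brighter probe set (1417394_at) read 9.96 in wild-type and 9.52 in BCL11B-/- MEFs, and its other probe set (1417395_at) read 9.07 and 8.47. Both read lower in BCL11B-/- MEFs. The log2 differences were −0.44 and −0.60, so that *Klf4* mRNA stood at 74.0% of its wild-type level on the first and was 1.52-fold lower on the second. Their mean was −0.52 ± 0.12 (SD over 2 probe sets of 1 pair of arrays). Of the 12331 genes 2.92% had a difference as low or lower than that of the brighter probe set. Macrophages also express *Klf4*, and the macrophage markers given above moved in the same direction with a median log2 difference of −0.81. Their part in the *Klf4* difference was not tested, and in RNA from a whole culture fewer cells of a type cannot be told apart from less RNA per cell.

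*Klf6*, whose product represses the preadipocyte gene *Dlk1*, gave lower values for BCL11B-/- MEFs with each of its 5 probe sets. The brightest (1433508_at) read 9.21 in wild-type and 8.87 in BCL11B-/- MEFs, a log2 difference of −0.34. The next brightest gave −0.38 (1427742_a_at) and −0.31 (1447448_s_at), and the dimmest (1459718_x_at), at 5.44 and 5.12, gave −0.32. Farthest from these was a probe set of intermediate brightness (1418280_at), at 7.85 and 7.27, with −0.59, just at 1.5-fold. The mean over the 5 was −0.39 ± 0.11 (SD), and *Klf6* was the one member with more than 2 probe sets whose probe sets were all above the floor and all on the same side. It stood at 79.0% of the wild-type level on its brightest probe set.

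*Klf9*, a glucocorticoid-induced factor that acts on *Pparg*, had 3 very bright probe sets among its 7. They read 12.12 and 11.76 (1456341_a_at), 12.03 and 11.85 (1428288_at), and 11.84 and 11.59 (1428289_at) in wild-type and BCL11B-/- MEFs. All 3 read lower in BCL11B-/- MEFs, with log2 differences of −0.36, −0.18 and −0.26. A further 2 probe sets of middle brightness gave −0.45 (1422264_s_at) and −0.30 (1436763_a_at). The remaining 2 lay under 5 log2 units and disagreed, at −0.49 (1436952_at) and 0.37 (1452723_at). Over the 5 probe sets above the floor the mean was −0.31 ± 0.10 (SD). With the 2 dim ones it was −0.24 ± 0.29 (SD). The 2 brightest had nearly the same mean over both arrays, and the choice between them moves the difference of *Klf9* from −0.36 to −0.18, from past 1.2-fold to short of it.

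*Klf5*, which C/EBPβ and C/EBPδ switch on and which then acts with them on *Pparg*, read 8.46 in wild-type and 8.15 in BCL11B-/- MEFs on its brightest probe set (1451021_a_at), a log2 difference of −0.32. The second (1451739_at) read 7.06 and 6.84, a difference of −0.22. Both were lower in BCL11B-/- MEFs, and their mean was −0.27 ± 0.066 (SD). The third (1430255_at) read 4.13 and 4.07, under the floor, with −0.055. *Klf15*, the activator of the glucose transporter gene *Slc2a4*, differed in direction from the other 4 adipogenic members. Its only probe set (1448181_at) read 7.01 in wild-type and 7.19 in BCL11B-/- MEFs, a log2 difference of 0.17, and 16.2% of all genes had a difference as high or higher.

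Of the anti-adipogenic pair, *Klf3* had 7 probe sets that did not agree in size. Its brightest (1454666_at) read 10.42 in wild-type and 10.15 in BCL11B-/- MEFs, a log2 difference of −0.27, just past 1.2-fold. The second brightest (1429360_at) gave −0.18. The 5 dimmer ones lay between −0.12 and 0.16, and 1 of these (1441200_at) read higher in BCL11B-/- MEFs, at 6.45 and 6.61. The mean over the 7 was −0.093 ± 0.13 (SD), so that the spread over probe sets was larger than the mean difference. *Klf2*, best known from endothelial cells and T cells, has 1 probe set (1448890_at), which read 6.17 in wild-type and 6.32 in BCL11B-/- MEFs, a log2 difference of 0.15. On the brightest probe sets 4 of 5 adipogenic members were at least 1.2-fold lower, with a median of −0.34, and 1 of 2 anti-adipogenic members was, with a median of −0.058, where 7.8% of all genes were. Both with the mean over all probe sets and on probe sets without a suffix, 2 of the 5 adipogenic members were left at 1.2-fold, *Klf4* and *Klf6*. The medians were −0.24 and −0.22, and 6.32% and 8.51% of all genes were lower at 1.2-fold. The difference between these groups was not tested.

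**Figure D2:**
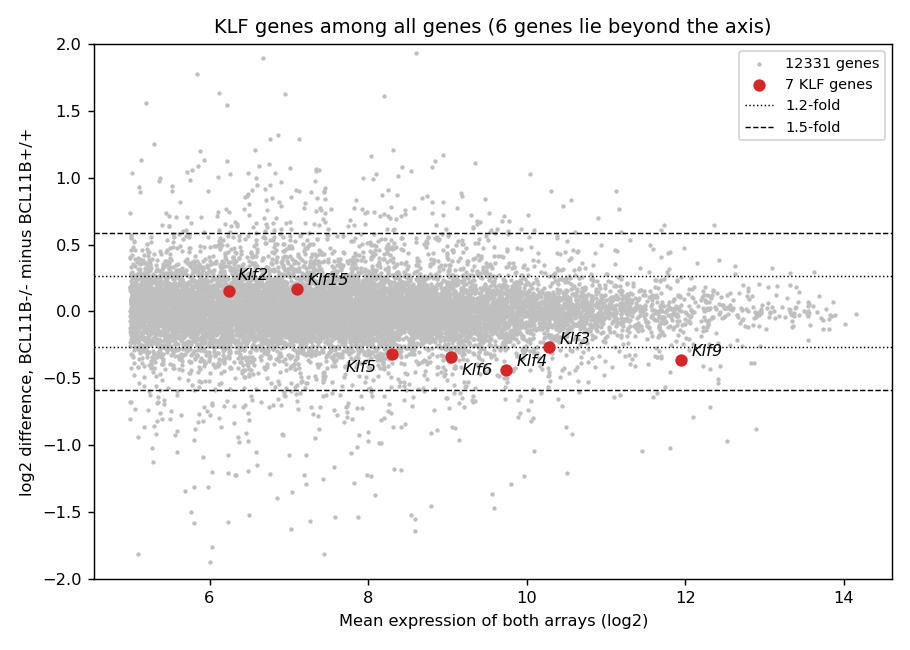
Log2 difference between BCL11B-/- and wild-type MEFs (vertical axis) against the mean of both arrays (horizontal axis, log2) for 12331 genes on their brightest probe set (grey) and the 7 KLF genes (red), with dotted lines at 1.2-fold and dashed lines at 1.5-fold. *Klf3*, *Klf4*, *Klf5*, *Klf6* and *Klf9* lie below the lower dotted line, none of the 7 passes a dashed line, and 6 genes lie beyond the vertical axis.

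The study ranked genes by the weighted average difference, in which a log2 difference counts for more the brighter its probe set is, and kept the 50 highest and 50 lowest as its top 100. By this score, with each gene on its probe set with the largest absolute value, *Klf4* ranked 171st from the lowest of 18193 genes with −0.34. *Klf9* ranked 225th with −0.30, *Klf6* 271st with −0.27, *Klf3* 587th with −0.18 and *Klf5* 727th with −0.16. *Klf15* ranked 2689th from the highest with 0.072 and *Klf2* 3754th with 0.054. No member was thus among the 100. The scores of *Klf4* and *Klf6* came from 1417395_at and 1418280_at, which are not their brightest probe sets. On their brightest the scores were −0.28 and −0.20. By the plain log2 difference among the 12331 genes, *Klf4* ranked 360th from the lowest, *Klf9* 527th, *Klf6* 591st, *Klf5* 695th and *Klf3* 931st.

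The other KLF and SP genes, which share the same zinc finger fold, were read in the same way. Of 16 on the array 13 had a mean of at least 5, and none of the 13 was at least 1.5-fold higher or lower. Of 8 other KLF genes 2 were at least 1.2-fold lower and 2 at least 1.2-fold higher, where 7.8% and 8.81% of all genes were. The median of the 8 was −0.12. *Klf13* read 8.91 in wild-type and 8.54 in BCL11B-/- MEFs, a log2 difference of −0.37, and *Klf10*, an early TGF-β response gene, read 8.34 and 7.97, also −0.37. The remaining 4 of the 8 lay between −0.21 and 0.038: *Klf1* at −0.21, *Klf11* at −0.17, *Klf14* at −0.073 and *Klf16* at 0.038. *Klf7*, reported to restrain adipogenesis, lay at the other end, at 7.94 and 8.29 with a difference of 0.35, and all 4 of its probe sets read higher in BCL11B-/- MEFs, from 0.18 to 0.35. *Klf12*, a repressor related to *Klf3*, read 7.16 and 7.48, a difference of 0.32, but its 5 probe sets ranged from −0.23 to 0.32 and averaged 0.067. The 5 SP genes all differed by less than 1.2-fold, from *Sp4* at −0.11 to *Sp7*, the osteoblast factor osterix, at 0.18, with a median of 0.016.

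**Figure D3:**
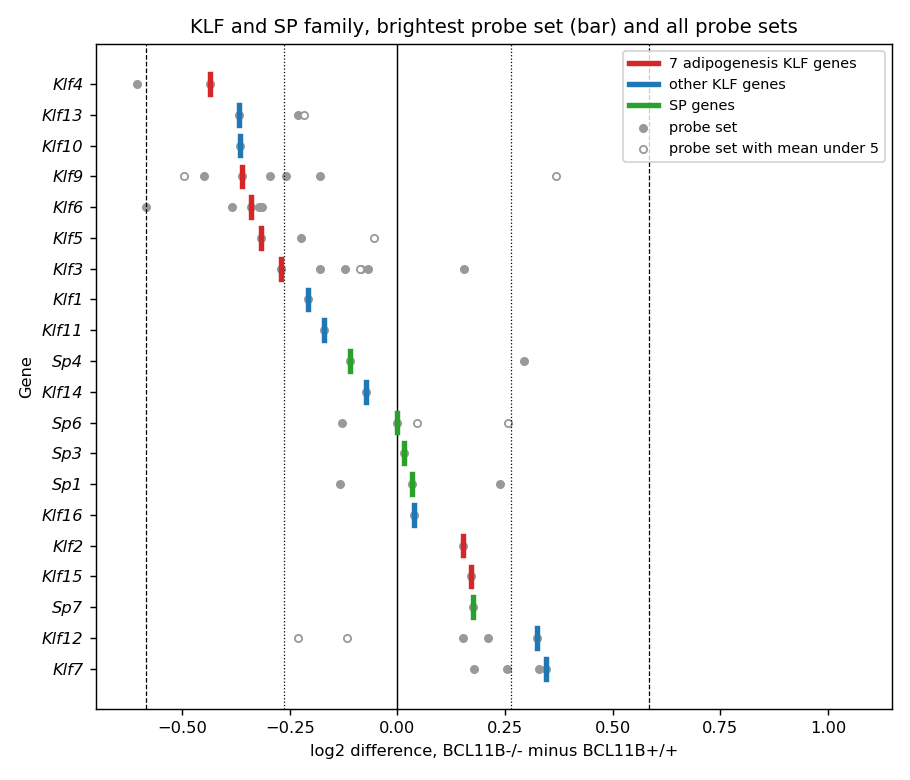
Log2 difference between BCL11B-/- and wild-type MEFs (horizontal axis) for the 20 KLF and SP genes with a mean of at least 5 (vertical axis), with a bar for the brightest probe set, grey circles for all probe sets and open circles for those with a mean under 5. Dotted lines mark 1.2-fold and dashed lines 1.5-fold. *Klf4*, *Klf13*, *Klf10*, *Klf9*, *Klf6*, *Klf5* and *Klf3* lie past the dotted line on the left, *Klf12* and *Klf7* on the right, and the SP genes lie between −0.11 and 0.18.

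Of 10 genes that the literature links to these factors in adipogenesis, 4 were at least 1.2-fold lower and 2 at least 1.2-fold higher in BCL11B-/- MEFs. Of all genes 7.8% were lower and 8.81% higher at 1.2-fold. By at least 1.5-fold 2 of the 4 were lower, where 1.75% of all genes were. The list was chosen with earlier results of these data known, so these counts only describe it. *Pparg*, the target that *Klf5* and *Klf9* promote and *Klf2* represses, read 7.11 in wild-type and 6.40 in BCL11B-/- MEFs, 1.64-fold lower on its only probe set. *Cebpa*, the target that *Klf3* represses, read 7.04 and 6.51, 1.45-fold lower. *Dlk1*, which *Klf6* represses and which marks preadipocytes, read 11.98 and 10.93, 2.06-fold lower, and its second probe set differed by −0.86. *Klf6* and *Dlk1* were thus both lower in BCL11B-/- MEFs. *Egr2*, the partner of *Klf4*, read 6.89 and 6.57, a log2 difference of −0.32, and its other probe set gave −0.73.

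Neither activator of *Klf5* reached 1.2-fold on its brightest probe set. *Cebpb* read 11.64 in wild-type and 11.49 in BCL11B-/- MEFs, a log2 difference of −0.15, and *Cebpd* read 11.60 and 11.62, a difference of 0.011. On their other probe sets *Cebpb* differed by 0.024 and *Cebpd* by −0.38. *Rxra*, the partner of PPARγ, differed by −0.18, and *Srebf1* by −0.011. The 2 higher genes were *Slc2a4*, the target of *Klf15*, at 6.04 and 6.32 with 0.28, and the lipid carrier gene *Fabp4* at 9.85 and 10.16 with 0.31. Both depended on the probe set: the second of *Slc2a4* gave −0.21, and the mean over the 4 of *Fabp4* was 0.063.

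Genes known to respond to dexamethasone or to cAMP, as *Klf9*, *Klf15* and *Klf4* do, mostly differed by less than 1.2-fold, as did most genes. Of all genes with a mean of at least 5, 7.8% were at least 1.2-fold lower and 8.81% at least 1.2-fold higher. None of 7 glucocorticoid-response genes, the receptor gene *Nr3c1* counted among them, was at 1.2-fold on its brightest probe set. They ranged from *Zbtb16* at −0.23 to *Sgk1* at 0.11. Their median log2 difference of −0.075 was the value of *Nr3c1*, whose 6 probe sets ranged from −0.38 to 0.20. Of 5 cAMP-response genes 1 was at least 1.2-fold lower on its brightest probe set, *Atf3* with −0.40. The highest was *Nr4a1* with 0.069, around a median of −0.13. The 4 probe sets of *Crem* ranged from −0.29 to −0.11. Among 8 cofactors and ubiquitin ligases of KLF proteins, *Wwp1*, a ligase for KLF2 and KLF5, was lowest with −0.27, just past 1.2-fold, and *Fhl3*, a partner of KLF3, was highest with 0.19. The median of the 8 was −0.056, and the CtBP corepressor genes *Ctbp1* and *Ctbp2* differed by −0.026 and 0.12.

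**Figure D4:**
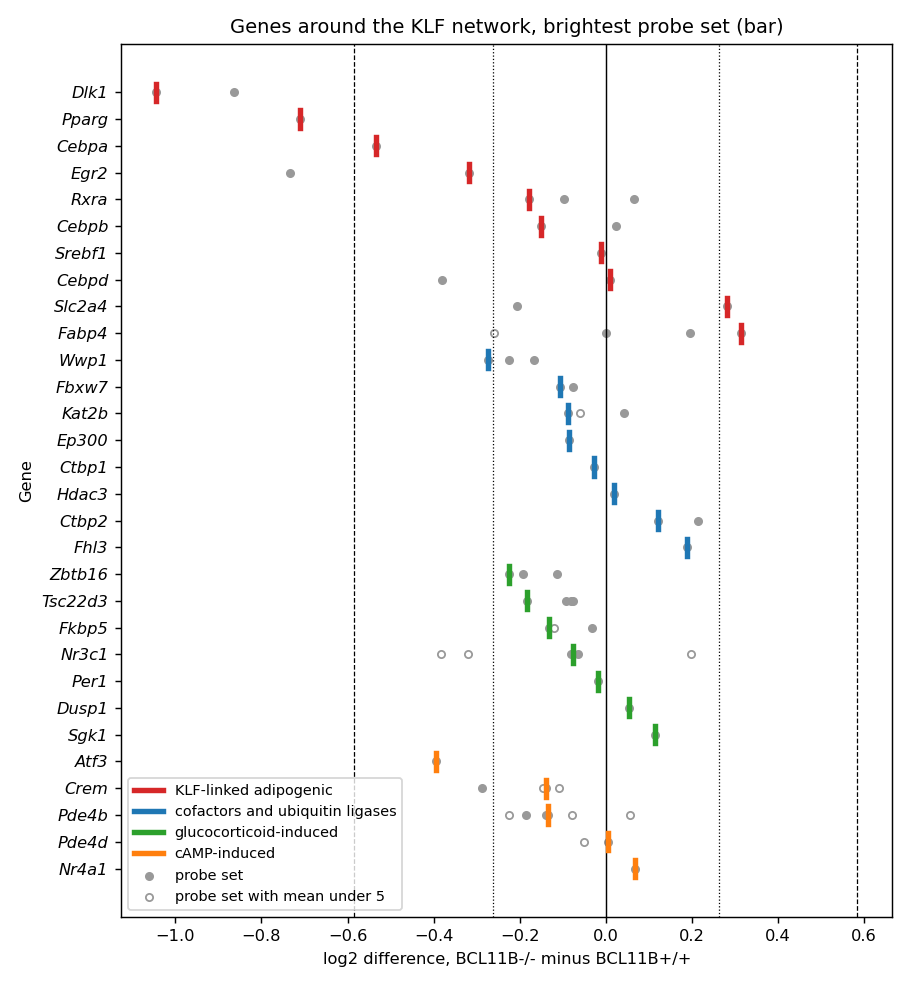
Log2 difference between BCL11B-/- and wild-type MEFs (horizontal axis) for genes around the KLF network (vertical axis), in 4 lists marked by the colour of the bar, which is the brightest probe set, with circles for all probe sets. Dotted lines mark 1.2-fold and dashed lines 1.5-fold. The bars of *Dlk1* at −1.04 and *Pparg* at −0.71 lie past the dashed line, and those of the 7 glucocorticoid-response genes lie between −0.23 and 0.11.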

How the data were processed

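The authors reduced the scans of the arrays with the robust multi-array average (RMA) in R (version 3.0.3 per the labels) and Bioconductor, so that the deposited table holds log2 expression after normalization. RMA corrects background, makes the distributions of the arrays alike and summarizes probes, so a change in total mRNA would not be seen and differences of dim probe sets are drawn toward 0. No genome build for the probes is given in the sources used here. RNA input was 100 ng per array, and the number of arrays limits the precision.

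Probe sets were named from the platform annotation where it gave 1 gene. Each gene was represented by its brightest probe set over both arrays, and genes with a mean under 5 log2 units were not counted. Differences are BCL11B-/- minus wild-type, and genes were counted at 1.5-fold and 1.2-fold. The weighted average difference scaled the mean from 0 to 1 over all probe sets except the 64 controls. No p-value was computed, since there were no replicates. Counting at 1.5-fold was checked on simulated data with planted differences larger than that and a noise that was set, not taken from these arrays. Counting at 1.2-fold was not checked in this way. The members, the gene lists (other KLF and SP genes, KLF-linked genes, cofactors, glucocorticoid- and cAMP-response genes, cell type markers) and the naming rule (all members, KLF and SP genes at either end, all KLF-linked genes, and the highest and lowest of each other list) were chosen with earlier results of these data known. *Klf1*, *Klf10*, *Klf11*, *Klf12*, *Klf14*, *Klf16*, *Nr3c1*, *Ctbp1*, *Ctbp2*, the context genes and most markers were named after their values were seen. Alternatives were the mean over probe sets, only probe sets free of suffixes (_a, _s, _x), a lowess fit with a span of 0.4 or the median subtracted, other floors and other folds. Promoters are the 250 bases before the start in a RefSeq table. The software was statsmodels 0.14.6, pandas 2.3.3, numpy 2.4.6 and matplotlib 3.10.9 under Python 3.11.15.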

Additional observations from a re-analysis of the deposited data

How the results depend on the processing

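Across 41 alternative values of the members' log2 differences and of their median, all 41 kept their sign, but many could not move. *Klf2* and *Klf15* have 1 probe set each, and the median difference subtracted was 0. Leaving out suffixed probe sets kept the same probe set for *Klf3*, *Klf4* and *Klf6*. Of the 41 values, 38 moved by less than 0.145, the pooled SD between probe sets of a gene. The 3 that moved further were *Klf3*, at −0.093 as the mean over all probe sets and −0.095 over those with a mean of at least 5, an alternative chosen after seeing the data, and *Klf9*, at −0.18 on its brightest probe set without a suffix. The lowess fit ranged from −0.011 to 0.014 and the median difference was 0, so rescaling moved little. At 1.2-fold 5 members were lower in BCL11B-/- MEFs in place of 0 at 1.5-fold, and of the other KLF and SP genes 2 were lower and 2 higher. Of all genes 1086 were higher and 962 lower at 1.2-fold, 43 and 62 at 2-fold, and 112 and 124 at 1.5-fold with a mean of at least 7, against 198 and 216, since stricter or looser rules count fewer or more genes by construction. No replicate could be left out, and no paired analysis was possible because each genotype had 1 array. Without replicates, none of these values shows how far cultures of 1 genotype differ.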
